A study of Mus musculus with 8 samples.

Results

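Estrogen action in the uterus was followed through 10 genes, the receptor genes Esr1, Esr2 and Gper1 and the target genes Greb1, Igf1, Igfbp3, Gadd45g, Cebpb, Padi1 and Padi2. They were taken by gene symbol from the authors' deposited table, which holds 41345 transcript clusters, the groups of probes that this array reads as 1 unit. Of these, 27037 carry one of 24647 symbols and 14308 carry none. By symbol, 9 of the 10 genes were found on 11 clusters. Gper1 was listed under its earlier symbol Gpr30 and was identified by its gene ID, which brought the set to 10 genes and 12 clusters. Padi1 and Padi2 each had 2 clusters, and the one with the lower cluster number stands for the gene.

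The tissue was endometrium, the inner lining of the uterus, scraped from CBAF1 females (the F1 cross of CBA and C57Bl/6) 8 h after mating, with the myometrium discarded. On the evening after proestrus, as judged by vaginal cytology, females were placed with Balb/c males of either of 2 kinds. Intact males gave seminal fluid, whereas SVX/VAS males gave none, per the labels, which expand neither abbreviation and give no ages. Each group comprised 4 Affymetrix Mouse Gene 2.0 ST arrays, each hybridised with a separate pool of RNA from 4 females (16 females per group). Mating was followed on video in both groups, and a copulatory plug was checked for Intact males only. No unmated females or hormone-treated animals were among these samples.

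Estrogens act through ESR1 and ESR2, nuclear receptors that bind the hormone and then DNA at estrogen response elements or by way of other transcription factors, and through GPER1, a membrane receptor. In the mouse uterus ESR1 is the receptor on which growth and most gene induction by estradiol depend, and epithelial growth is driven in part by IGF1 made in the stroma. Ovarian estradiol peaks before ovulation, and its effects on the lining are still under way around the time of mating. Transcript levels of receptors and targets do not measure hormone or receptor activity.

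All 8 arrays had similar medians, between 5.35 and 5.41 on the log2 scale of signal, and the median difference between the groups over all clusters was 0.00047. Markers of both main compartments were measured, with 12 of 12 epithelial and 12 of 12 stromal genes at or above the median cluster. Smooth muscle markers were present as well, 7 of 8 above the median cluster, although the myometrium had been discarded. Marker lists varied from pool to pool. The mean signal of the stromal list ran from 7.31 to 8.08 in Intact and from 7.59 to 8.19 in SVX/VAS, and that of the smooth muscle list from 6.70 to 7.76 and from 6.91 to 7.46. The epithelial list ran from 9.53 to 9.88 in Intact and from 9.51 to 9.72 in SVX/VAS. Neutrophil markers were near the low end of the scale, with 3 of 12 above the median cluster and list means of 4.85 to 5.15 in Intact and 4.77 to 4.86 in SVX/VAS. In limma's moderated test over all clusters, no gene of the 7 marker lists reached an adjusted p under 0.05. In these bulk samples, fewer cells of a type and less RNA per cell cannot be told apart.

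**Figure D1:**
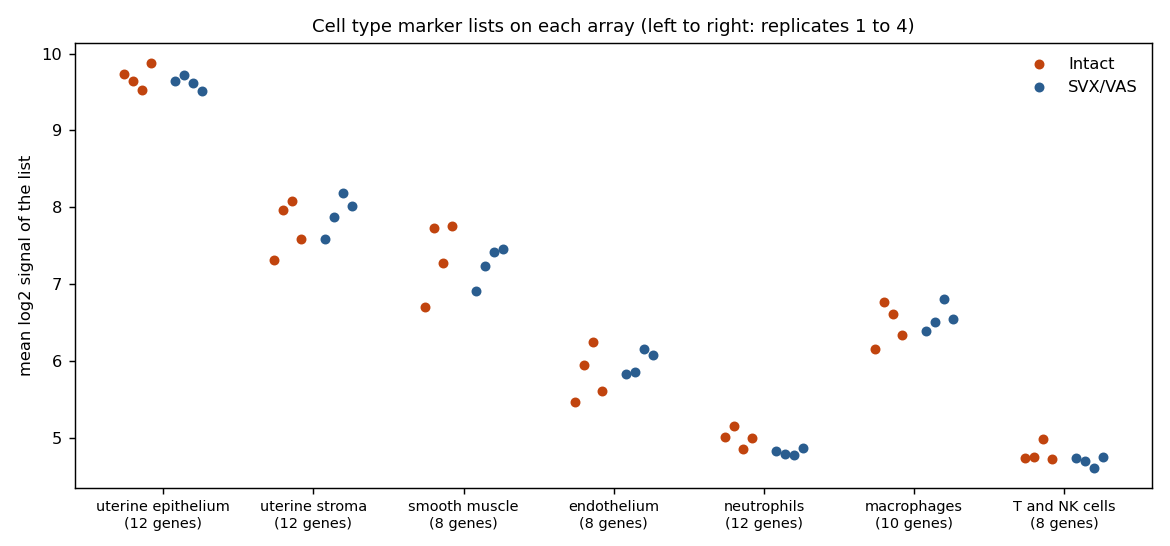
Mean log2 signal (y axis) of 7 cell type marker lists (x axis) on each of 4 Intact and 4 SVX/VAS arrays, 1 point per array. The groups overlap in every list; in the neutrophil list, Intact arrays run from 4.85 to 5.15 and SVX/VAS arrays from 4.77 to 4.86.

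The comparison between Intact and SVX/VAS mating addressed which endometrial transcripts differ when seminal fluid is delivered. None of the 12 clusters of the 10 genes had an adjusted p under 0.05 in limma's moderated test, where 34 of 41345 clusters did (0.0822%). None reached a difference of 1.5-fold with an unadjusted p under 0.05 either, a rule met by 2.47% of all clusters with limma's p and by 1.86% with the methods' t-test. Differences of the 12 clusters ran from -0.45 to 0.23 on the log2 scale, and adjusted p-values from 0.15 to 1. For 3 clusters, of Esr1, Padi1 and Padi2, all Intact arrays lay below all SVX/VAS arrays, which held for 4.81% of all clusters (8.17% in either direction). The same 3 had an unadjusted p under 0.05 by limma with a lower Intact mean, as did 6.78% of all clusters. None had such a p by limma with a higher Intact mean (5.13% of all clusters), although the methods' t-test gave Cebpb an unadjusted p of 0.049. No cluster of the set had all Intact arrays above all SVX/VAS arrays, against 3.37% of all clusters. With 4 arrays against 4, 70 splits exist, and the smallest two-sided p of an exact permutation test is 0.029. The 3 clusters had this smallest p, which Benjamini-Hochberg adjustment over the 12 clusters turned into 0.11. With only 3 clusters at the smallest p, the adjusted permutation test could not have passed them, and nothing is drawn from its outcome.

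**Figure D2:**
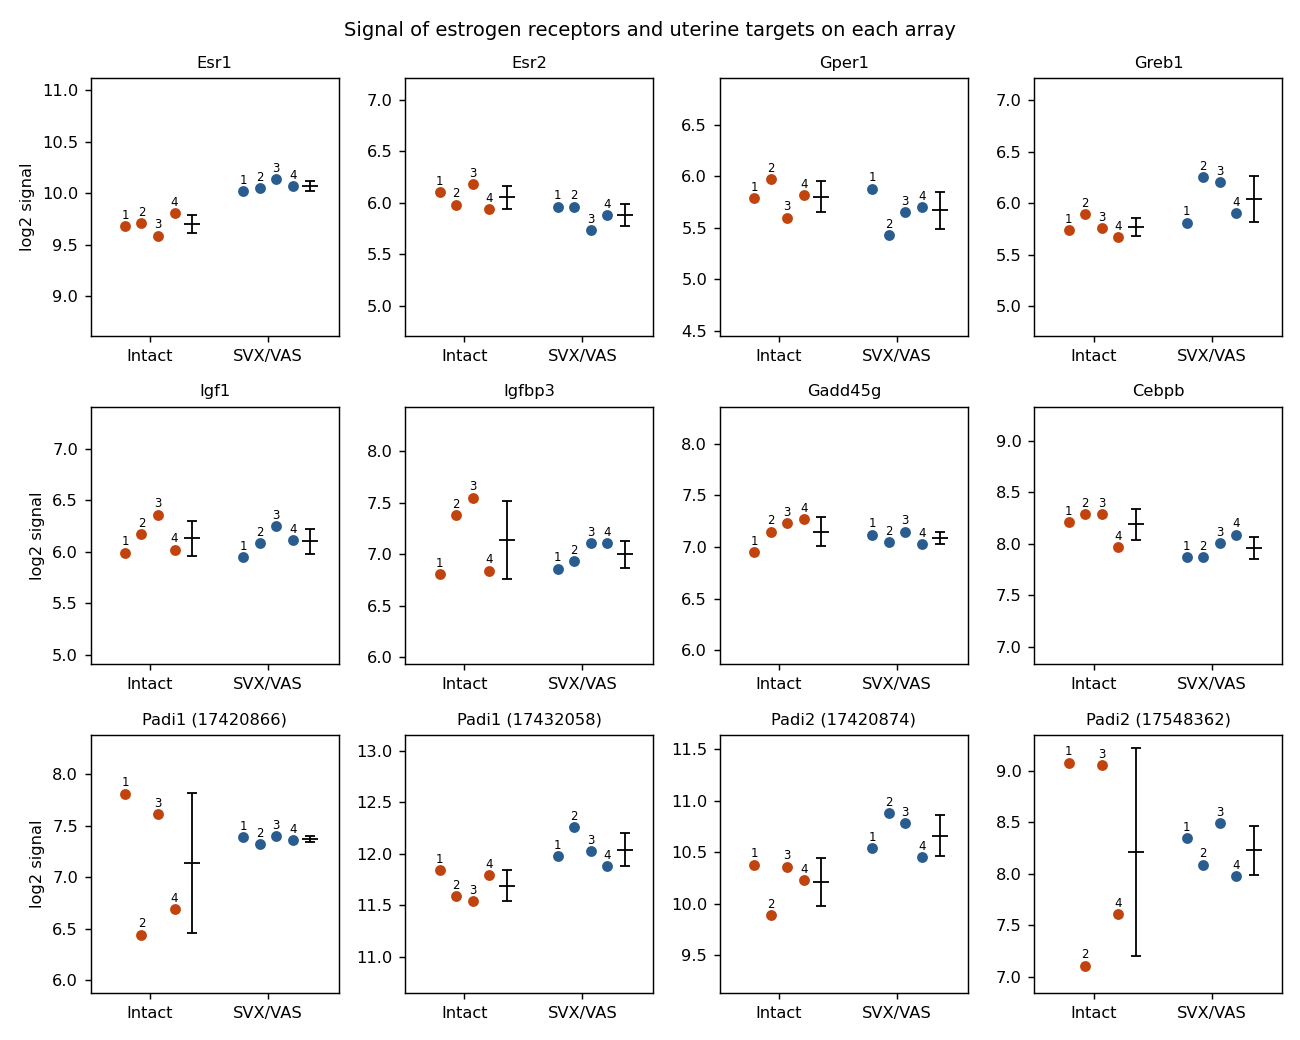
Log2 signal (y axis, 2.5 log2 units high in each panel) of the 12 clusters on each Intact and SVX/VAS array (x axis); points are arrays with their replicate number, and the bar beside them is the mean and SD of 4 arrays. Esr1 points of the groups are separate, whereas clusters 17420866 of Padi1 and 17548362 of Padi2 split the Intact arrays into replicates 1 and 3 above and replicates 2 and 4 below the SVX/VAS arrays.

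Esr1, which encodes estrogen receptor alpha and lies on chromosome 10 at 12.0 cM in the authors' annotation, had log2 signals of 9.68, 9.71, 9.59 and 9.81 in Intact replicates 1 to 4. In SVX/VAS replicates 1 to 4 they were 10.02, 10.05, 10.14 and 10.07. Every Intact pool was thus below every SVX/VAS pool. The Intact mean was 9.70 ± 0.09 (SD, n = 4) and the SVX/VAS mean 10.07 ± 0.05 (SD, n = 4). The difference was -0.38 on the log2 scale (SE 0.087, 95% interval -0.57 to -0.18), a 1.30-fold lower signal after Intact mating with an interval of 1.13-fold to 1.49-fold. It did not pass over all clusters (adjusted p = 0.15 by limma's moderated test and 0.090 by the methods' t-test). The exact permutation test gave the smallest p it can give, 0.029, and 0.11 after Benjamini-Hochberg adjustment over the 12 clusters. Leaving out any 1 array kept the difference between -0.41 and -0.34.

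Esr2, the gene of estrogen receptor beta, on chromosome 12 at 33.0 cM, went the other way by its mean. Its log2 signals were 6.10, 5.98, 6.18 and 5.94 in Intact replicates 1 to 4 and 5.96, 5.96, 5.73 and 5.88 in SVX/VAS replicates 1 to 4. Intact replicates 1, 2 and 3 were above all SVX/VAS arrays and replicate 4 was among them. The difference was 0.17 (SE 0.098, 95% interval -0.05 to 0.39, adjusted p = 0.54 by limma's moderated test), and the exact permutation p was 0.086. Levels of Esr1 and Esr2 come from different probes and are not compared with each other.

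Gper1, the membrane estrogen receptor gene on chromosome 5, had log2 signals of 5.79, 5.97, 5.60 and 5.82 in Intact and 5.88, 5.43, 5.65 and 5.70 in SVX/VAS replicates 1 to 4. The groups overlapped broadly. Its difference of 0.13 had a 95% interval of -0.15 to 0.41 (adjusted p = 0.73 by limma's moderated test). This leaves out a 1.5-fold change of the signal, 0.58 on the log2 scale, in either direction. The means of 5.80 in Intact and 5.67 in SVX/VAS were near the array medians of 5.35 to 5.41. Without a detection call, the interval does not bound the change of the transcript. The same limit holds for Esr2 (means of 6.05 in Intact and 5.88 in SVX/VAS), Greb1 (5.77 and 6.04) and Igf1 (6.13 and 6.10), also not far above those medians.

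Greb1 encodes a cofactor of the estrogen receptor and is itself a classical estrogen target, first described in human breast cancer cells. Its cluster, on chromosome 12, read 5.74, 5.89, 5.76 and 5.67 in Intact replicates 1 to 4 and 5.81, 6.25, 6.20 and 5.90 in SVX/VAS replicates 1 to 4. Intact replicate 2 alone was above the lowest SVX/VAS array, and SVX/VAS replicates 2 and 3 were the highest of all. The difference was -0.28 (SE 0.12, 95% interval -0.55 to 0.00), a 1.21-fold lower mean that did not pass (adjusted p = 0.42 by limma's moderated test, exact permutation p = 0.057). The SD was 0.09 in Intact and 0.22 in SVX/VAS (n = 4 each).

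Padi2 and Padi1 encode peptidylarginine deiminases, enzymes that convert arginine in proteins to citrulline. Both genes are known to be expressed under estrogen in the rodent uterus, and both were placed on chromosome 4 at 71.0 cM in the authors' annotation. Cluster 17420874, which stands for Padi2, read 10.38, 9.89, 10.36 and 10.23 in Intact and 10.54, 10.88, 10.78 and 10.45 in SVX/VAS replicates 1 to 4. All Intact arrays were lower than all SVX/VAS arrays, although Intact replicate 1 and SVX/VAS replicate 4 were close. The difference was -0.45 (SE 0.15, 95% interval -0.78 to -0.12), or 1.36-fold lower, with adjusted p = 0.26 by limma's moderated test and an exact permutation p of 0.029 (0.11 adjusted over the 12 clusters).

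The second Padi2 cluster, 17548362, did not follow it. It read 9.08, 7.11, 9.06 and 7.61 in Intact and 8.35, 8.09, 8.49 and 7.98 in SVX/VAS replicates 1 to 4. Intact replicates 1 and 3 were above all SVX/VAS arrays and replicates 2 and 4 below all of them, so that the group means nearly coincided (difference -0.01, SE 0.43, adjusted p = 1 by limma's moderated test). With quantile normalization the sign turned, to 0.02. The Intact SD was 1.01 against 0.24 in SVX/VAS.

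Padi1 showed the same contrast between its clusters. Cluster 17420866, which stands for the gene by the rule, read 7.81, 6.44, 7.61 and 6.69 in Intact and 7.39, 7.32, 7.40 and 7.36 in SVX/VAS replicates 1 to 4. Here too Intact replicates 1 and 3 were above and 2 and 4 below all SVX/VAS arrays, and the SD was 0.68 in Intact and 0.03 in SVX/VAS. Its difference was -0.23 (SE 0.29, 95% interval -0.87 to 0.42, adjusted p = 0.80 by limma's moderated test), and without Intact replicate 2 it was 0.00. Cluster 17432058 read 11.84, 11.59, 11.54 and 11.79 in Intact and 11.98, 12.26, 12.03 and 11.88 in SVX/VAS replicates 1 to 4. All of its Intact arrays were below all of its SVX/VAS arrays, with a difference of -0.35 (SE 0.12, 95% interval -0.61 to -0.09), or 1.27-fold lower. It did not pass either (adjusted p = 0.28 by limma's moderated test, exact permutation p = 0.029, 0.11 adjusted over the 12 clusters). What is read for Padi1 and Padi2 therefore depends on the cluster taken, and the files do not say how the clusters of a gene differ. By number, Padi1 cluster 17432058 stands near that of Padi3 (17432038), and Padi1 cluster 17420866 near Padi2 cluster 17420874. Padi1 lies on the minus strand and Padi2 on the plus strand. Which strand each cluster reads was not tested.

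**Figure D3:**
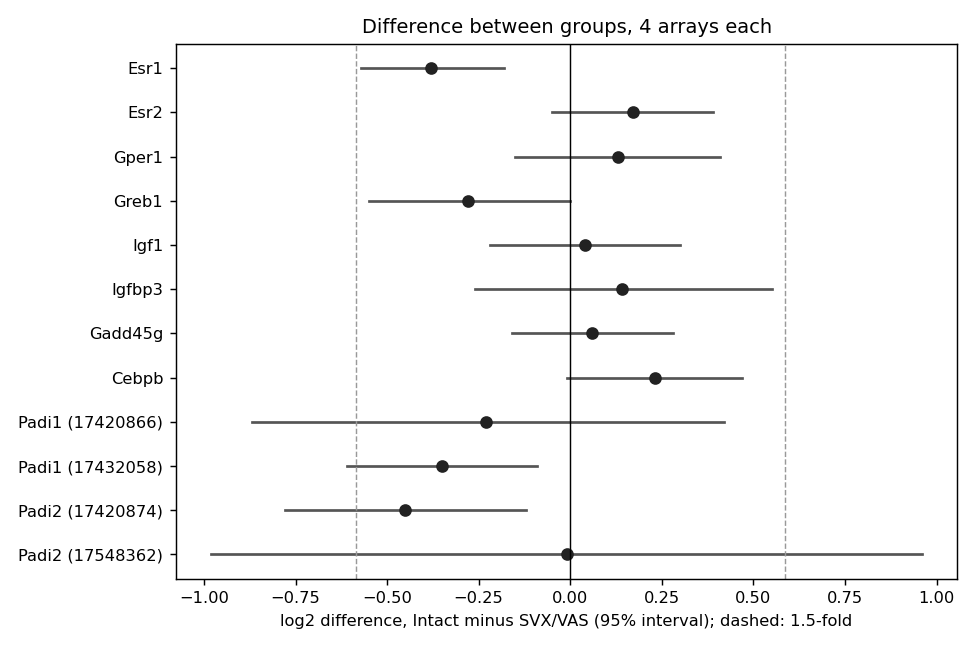
Difference in log2 signal, Intact minus SVX/VAS (x axis), of the 12 clusters (y axis); points are estimates from 4 arrays per group, lines their 95% intervals from limma, and dashed lines mark 1.5-fold. The intervals of Esr1 and of one cluster each of Padi1 and Padi2 lie below 0, and the interval of Padi2 cluster 17548362 is the widest, from -0.98 to 0.96.

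The clusters with the lower Intact means belonged to Esr1, Greb1, Padi1 and Padi2, and the 250 bases before their start sites are shown to set these genes beside the receptor's DNA motif. All 10 genes had an entry among the promoter sequences of RefSeq (build GRCm38.p6), Esr1 and Greb1 with 2 start sites each, which made 12 sequences. Both strands were searched for the palindromic estrogen response element GGTCANNNTGACC, for its half-site GGTCA, which the palindrome contains, and for the GC box GGGCGG, bound by SP1, with which the estrogen receptor is known to act. Capitals mark half-sites and GC boxes on either strand. Each line reads 5′ to 3′ on the gene's own strand.
Esr1, first start, chr10:4611739-4611988, plus strand: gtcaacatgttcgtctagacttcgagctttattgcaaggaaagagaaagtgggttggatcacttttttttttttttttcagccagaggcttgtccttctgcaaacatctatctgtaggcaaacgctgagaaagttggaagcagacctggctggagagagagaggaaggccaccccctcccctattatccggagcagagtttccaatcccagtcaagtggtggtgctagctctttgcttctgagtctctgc
Esr1, second start, chr10:4709908-4710157, plus strand: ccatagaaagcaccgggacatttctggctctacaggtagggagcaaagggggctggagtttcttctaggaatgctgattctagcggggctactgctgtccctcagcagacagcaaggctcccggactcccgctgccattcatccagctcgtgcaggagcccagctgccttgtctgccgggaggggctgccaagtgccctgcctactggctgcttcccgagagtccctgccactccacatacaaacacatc
Greb1, first start, chr12:16800887-16801136, minus strand: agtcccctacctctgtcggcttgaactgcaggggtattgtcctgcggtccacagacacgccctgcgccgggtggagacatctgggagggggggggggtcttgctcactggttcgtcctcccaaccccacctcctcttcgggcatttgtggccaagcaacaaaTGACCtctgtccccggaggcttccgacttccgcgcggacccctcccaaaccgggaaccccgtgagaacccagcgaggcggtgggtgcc
Greb1, second start, chr12:16757240-16757489, minus strand: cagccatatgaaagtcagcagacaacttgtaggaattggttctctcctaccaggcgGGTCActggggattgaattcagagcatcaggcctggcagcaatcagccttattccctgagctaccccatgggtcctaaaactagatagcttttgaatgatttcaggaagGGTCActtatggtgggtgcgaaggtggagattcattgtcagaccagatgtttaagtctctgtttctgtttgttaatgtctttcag
Padi1, chr4:140845779-140846028, minus strand: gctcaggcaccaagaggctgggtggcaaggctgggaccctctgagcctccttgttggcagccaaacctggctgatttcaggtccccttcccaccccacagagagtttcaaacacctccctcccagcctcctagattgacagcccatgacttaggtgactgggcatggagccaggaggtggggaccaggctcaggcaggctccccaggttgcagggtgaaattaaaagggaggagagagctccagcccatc
Padi2, chr4:140906110-140906359, plus strand: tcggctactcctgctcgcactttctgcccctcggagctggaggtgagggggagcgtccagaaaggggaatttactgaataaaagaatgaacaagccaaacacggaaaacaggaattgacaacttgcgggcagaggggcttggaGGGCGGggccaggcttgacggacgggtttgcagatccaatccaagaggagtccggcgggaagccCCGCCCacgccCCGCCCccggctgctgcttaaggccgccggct
The palindrome was in none of the 12 sequences and in 0.0639% of all 32851 RefSeq windows of this length. Half-sites were in 5 of the 12, from 4 genes, and in 35.2% of all windows. Greb1 held 1 half-site 88 bases before its first start and 2 before its second, at 194 and 85 bases, whereas Esr1, Padi1 and Padi2 held none. GC boxes were in 2 of the 12, those of Cebpb and Padi2, and in 32.7% of all windows. Padi2 held 3. A match describes these letters alone, and estrogen receptor sites often lie far from start sites, outside these windows.

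Igf1 encodes insulin-like growth factor 1, and Igfbp3 a secreted protein that binds it. The Igf1 cluster, on chromosome 10 at 48.0 cM, read 5.99, 6.17, 6.36 and 6.02 in Intact and 5.95, 6.08, 6.25 and 6.11 in SVX/VAS replicates 1 to 4. The groups overlapped, and the difference of 0.04 had a 95% interval of -0.22 to 0.30 (adjusted p = 0.93 by limma's moderated test), which leaves out a 1.5-fold change of the signal in either direction. Without Intact replicate 3 it was -0.04, and without SVX/VAS replicate 1 -0.01. Igfbp3, on chromosome 11, read 6.81, 7.38, 7.55 and 6.84 in Intact and 6.86, 6.93, 7.11 and 7.11 in SVX/VAS replicates 1 to 4. Intact replicates 2 and 3 were the highest and replicates 1 and 4 the lowest of all arrays. Its difference was 0.14 (SE 0.18, 95% interval -0.26 to 0.55, adjusted p = 0.80), with an SD of 0.38 in Intact and 0.13 in SVX/VAS. Leaving out 1 array moved it between 0.01, without Intact replicate 3, and 0.25, without Intact replicate 1 or 4.

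Both genes varied across pools with the stromal, endothelial and macrophage marker lists. In the Intact group Igf1, Igfbp3, the stromal list and the endothelial list all had their values in the order replicate 3, 2, 4 and 1 from high to low. Over the 8 arrays, Igf1 and the mean of the stromal list had Pearson's r = 0.84 (exact permutation p = 0.0096) and Spearman's rho = 0.93 (exact permutation p = 0.0022). For Igfbp3 they were 0.73 (p = 0.036) and 0.81 (p = 0.022) by exact permutation. Without the 2 arrays farthest from the median of the stromal list, r was 0.80 for Igf1 and 0.62 for Igfbp3. For deviations from the group means, r was 0.94 and 0.91. With the endothelial list, Pearson's r was 0.84 for Igf1 and 0.78 for Igfbp3, rho was 0.90 for both, r for deviations from the group means was 0.95 and 0.97, and r without the 2 farthest arrays was 0.76 and 0.61. With the macrophage list, r was 0.75 and 0.71 and rho 0.86 and 0.83, and r without the 2 farthest arrays was 0.68 and 0.83. Against the epithelial list both were negative, with r of -0.59 and -0.68. These relations were looked for after the values were seen, among 84 pairs of a cluster and a marker list, and 0 of the 84 passed an exact permutation test after adjustment for either measure (adjusted p of 0.13 for rho and 0.20 for r of Igf1 with stroma). The part of the makeup of the pools in the spread of Igf1 and Igfbp3 was not tested.

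Cebpb encodes C/EBP-beta, a transcription factor induced by estrogen in the mouse uterus and needed there for epithelial growth and decidualization. Its cluster, on chromosome 2 at 95.5 cM, read 8.21, 8.29, 8.29 and 7.97 in Intact and 7.87, 7.87, 8.01 and 8.09 in SVX/VAS replicates 1 to 4. Intact replicates 1, 2 and 3 lay above all SVX/VAS arrays, and replicate 4 among them. The difference was 0.23 (SE 0.11, 95% interval -0.01 to 0.47), or 1.17-fold, with adjusted p = 0.45 by limma's moderated test and an exact permutation p of 0.086. C/EBP-beta is also a factor of the inflammatory response, and neutrophil list means were 4.85 to 5.15 in Intact and 4.77 to 4.86 in SVX/VAS. Over the 8 arrays, Cebpb and the mean of that list had Pearson's r = 0.58 (exact permutation p = 0.12). For deviations from the group means, r was 0.08. The T and NK cell list gave the same r of 0.58 (exact permutation p = 0.11), and 0.37 for deviations. With the epithelial list r was -0.36, and -0.89 for deviations. The part of any of these cell types in the Cebpb signal was not tested.

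Gadd45g encodes a stress-response protein that acts on the cell cycle. Its cluster, on chromosome 13, read 6.95, 7.15, 7.23 and 7.27 in Intact and 7.12, 7.05, 7.15 and 7.03 in SVX/VAS replicates 1 to 4, so that the groups overlapped. Its difference of 0.06 (95% interval -0.16 to 0.28, adjusted p = 0.85 by limma's moderated test) leaves out a 1.5-fold change. Leaving out 1 array moved it between 0.02, without Intact replicate 4, and 0.13, without Intact replicate 1.

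Around these genes, 8 lists of related genes were counted. The lists were fixed with earlier results of these data known, so shares larger than those of all clusters are no test of them. Of 43 estrogen-responsive uterine genes, 3 were higher after Intact mating (adjusted p under 0.05, limma's moderated test), 0 lower and 40 did not pass. Among all clusters 0.0508% were higher and 0.0314% lower by that rule. They were Sprr2d (6.12-fold, adjusted p = 0.010) and Sprr2e (5.08-fold, adjusted p = 0.010), cornified envelope genes whose probes may be shared between close relatives, and Ccnd1, the cyclin D1 gene (1.82-fold, adjusted p = 0.033). All 3 missed that threshold by the methods' t-test, with an adjusted p of 0.061 each. None of the list passed without any one of Intact replicates 1 and 2 or SVX/VAS replicates 1, 3 and 4 (0 genes each). Fos, an AP-1 subunit and immediate-early estrogen target, was 1.88-fold higher with adjusted p = 0.057 by limma's moderated test. The list as a whole was evenly divided, 22 genes with a positive and 21 with a negative difference and a median of 0.00. At a difference of 1.5-fold and an unadjusted p under 0.05, 5 were higher and 4 lower, where 0.900% and 1.57% of all clusters were. The 5 were the genes above and Sprr2b (2.51-fold, adjusted p = 0.057). The 4 were Txnip, an inhibitor of thioredoxin (-0.99, adjusted p = 0.057, with -0.47 and adjusted p = 0.48 on its other cluster), the mitotic cyclin gene Ccnb1 (-0.71, adjusted p = 0.16), the topoisomerase gene Top2a (-0.69, adjusted p = 0.41) and the water channel gene Aqp5 (-0.61, adjusted p = 0.32). Sprr2b and these 4 were named with their values in view.

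Coregulators of the estrogen receptor showed small differences. Of 21 measured, 0 passed by limma's moderated test, 2 were higher and 2 lower at an unadjusted p under 0.05 (5.13% and 6.78% of all clusters), and the median was -0.03. The RNA helicase genes Ddx17 (-0.25, SE 0.087, adjusted p = 0.30) and Ddx5 (-0.21, SE 0.082, adjusted p = 0.34, and -0.38 with adjusted p = 0.16 on its other cluster) had no overlap between groups, nor had Foxa1, a pioneer factor for the receptor (0.23, SE 0.089, adjusted p = 0.36). Prmt1, a protein arginine methyltransferase, differed by 0.26 (SE 0.11, adjusted p = 0.39 by limma's moderated test). In the whole list, groups did not overlap for 1 gene with Intact higher and 3 with Intact lower (3.37% and 4.81% of all clusters).

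Among 10 steroid and estrogen-related receptors, 0 passed and 2 were lower at an unadjusted p under 0.05 by limma's moderated test (6.78% of all clusters). The glucocorticoid receptor gene Nr3c1 was 1.24-fold lower (adjusted p = 0.23), with all Intact arrays below all SVX/VAS arrays, and Pgrmc1, a progesterone-binding membrane protein gene, 1.20-fold lower (adjusted p = 0.35). Its relative Pgrmc2 was 1.15-fold higher with no overlap (adjusted p = 0.45 by limma's moderated test). Esrra, the orphan estrogen-related receptor alpha gene, was 1.12-fold higher (adjusted p = 0.52 by the same test). Groups did not overlap in 8.17% of all clusters.

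Of 9 measured genes of estrogen synthesis and inactivation, 0 passed the adjusted threshold and 1 was higher by 1.5-fold with an unadjusted p under 0.05 (0.900% of all clusters). This was Hsd17b7, an enzyme of both estradiol and cholesterol synthesis, with means of 6.64 ± 0.38 in Intact and 5.31 ± 0.14 in SVX/VAS (SD, n = 4 each), 2.52-fold higher with adjusted p = 0.052 by limma's moderated test. Hsd17b12, an enzyme of fatty acid elongation that also converts estrone, was 1.31-fold higher (adjusted p = 0.24 by limma's moderated test). The groups of Hsd17b7 and Hsd17b12 did not overlap, as in 3.37% of all clusters with Intact higher. Hsd17b4, a peroxisomal enzyme, was 1.07-fold lower (adjusted p = 0.70).

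In the insulin-like growth factor axis beyond Igf1 and Igfbp3, 0 of 17 genes passed by limma's moderated test, and 1 was higher and 2 lower at an unadjusted p under 0.05 (5.13% and 6.78% of all clusters). Igf2r, the receptor that clears IGF2, was 1.27-fold lower (adjusted p = 0.20 by limma's moderated test) and Insr, the insulin receptor gene, 1.25-fold lower (adjusted p = 0.24). Both had no overlap between groups, as had 4.81% of all clusters with Intact lower. Stc2, an inhibitor of the protease that releases IGF1 from its binding proteins, was 1.22-fold higher (adjusted p = 0.36), and Igfals, a carrier subunit, 1.19-fold higher (adjusted p = 0.52).

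None of the 3 other peptidylarginine deiminase genes passed. Padi4, best known for citrullinating histones in neutrophils, was 1.38-fold lower (means of 7.46 ± 0.16 and 7.93 ± 0.07, SD, n = 4 each, adjusted p = 0.14 by limma's moderated test) with no overlap between groups. Neutrophil list means were 4.85 to 5.15 in Intact and 4.77 to 4.86 in SVX/VAS, and their part in the Padi4 signal was not tested. Padi3 and Padi6 differed by -0.06 and 0.06, each with adjusted p = 0.89. In the CEBP family, 0 of 6 further genes passed the adjusted threshold. By 1.5-fold with limma's unadjusted p under 0.05, 1 was higher, Cebpd (0.900% of all clusters). Cebpd, an acute-phase relative of Cebpb, was 1.62-fold higher with no overlap (adjusted p = 0.057 by limma's moderated test), while Cebpa, Cebpg and Cebpe differed by 0.10, 0.08 and -0.04. Of the 3 further genes of the GADD45 list, 0 passed. Gadd45a was 1.42-fold lower with no overlap (adjusted p = 0.15 by limma's moderated test) and Gadd45b 1.19-fold lower (adjusted p = 0.45). Gadd45gip1, whose protein binds the GADD45 proteins, was 1.16-fold higher, also with no overlap (adjusted p = 0.47 by the same test). Over all clusters, 3.37% had no overlap with Intact higher and 4.81% with Intact lower.

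**Figure D4:**
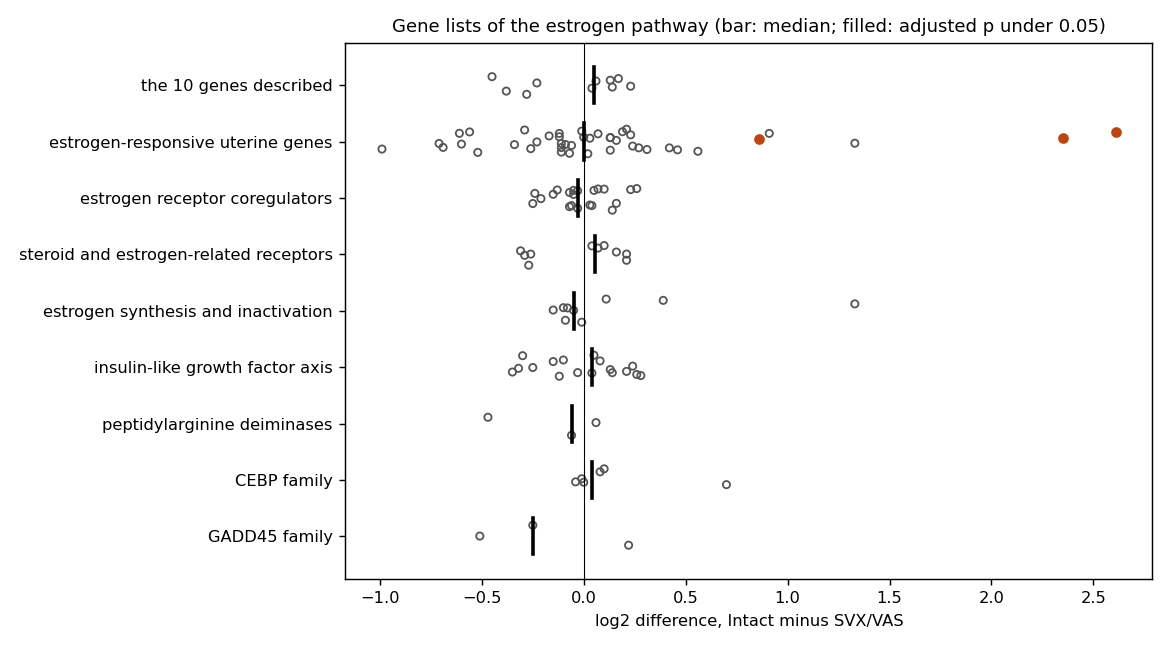
Difference in log2 signal, Intact minus SVX/VAS (x axis), of the 10 genes described and of 8 lists of related genes (y axis), 1 point per gene. Black bars are medians and filled points have an adjusted p under 0.05 by limma's moderated test. The 3 filled points, Sprr2d, Sprr2e and Ccnd1, are all in the list of estrogen-responsive uterine genes, whose median is 0.00.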

How the data were processed

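Endometrial RNA of 4 Intact and 4 SVX/VAS pools was measured on arrays. The authors made the deposited log2 signals with Partek Genomics Suite 6.6 (RMA background correction, GC content correction, mean of probes), per the series text, and the submitters' processing notes also name Affymetrix Expression Console. The normalization between arrays and the genome build are not given in the sources used here. Per the file headers, the authors' deposited table of the comparison holds an unadjusted p-value, the ratio of Intact over SVX/VAS, and score columns (signed fold, F, sums of squares). Differences of group means of the log2 values equalled the log2 ratio of that table within 6e-05, which fixed scale and direction; the signals were not centred. They are values after background correction with no detection call, and the number of arrays limits precision (median SE 0.14 over all clusters).

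The labels gave each array its group and replicate number. Differences were tested with limma 3.58.1 (lmFit and eBayes, R 4.3.3) on the values as deposited, with no filter and Benjamini-Hochberg adjustment over all 41345 clusters. All 12 clusters of the 10 genes had a mean at or above the median cluster. Single clusters were also tested by exact permutation, two-sided. The methods' t-test was run on the same values. The alternatives were quantile and median normalization, a filter on low values, an intensity trend, the t-test, the authors' deposited table, clusters with 1 symbol, a replicate block and leaving out each array. On simulated data with 200 changed clusters of 41345, the fit recovered 93.0% of changes of 2 and 73.0% of changes of 1 on the log2 scale. It also called 11 clusters that had not been changed. Changes as small as those of the 12 clusters were not simulated. List genes were matched by RefSeq accession, gene ID or symbol to the GRCm38.p6 gene table; Sts was not analysed here.

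The genes, lists and tests were chosen with earlier results of these data known. Named were the 10 genes and, in each list, the 4 other genes with the smallest p and any past the adjusted threshold; 1 gene that this rule names is not reported here.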

Additional observations from a re-analysis of the deposited data

Results flagged for a closer look

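Among the 12 clusters of the 10 genes and the 30 genes that the rule took from the lists, 84 groups of 4 arrays were examined for 1 array far from the other three, and 10 had one, none of them in a cluster of the 10 genes. Chance alone gives about 1 in 20 groups. SVX/VAS replicate 2 was high for Sprr2d (8.58 against 7.80 to 7.93), Sprr2e (7.13 against 6.42 to 6.48) and Stc2 (8.52 against 8.24 to 8.27). SVX/VAS replicate 4 was low for Cebpa (6.37 against 6.55 to 6.57) and Igf2r (8.33 against 8.50 to 8.51) and high for Ddx5 (10.82 against 10.72 in the others) and Esrra (7.83 against 7.60 to 7.63). Intact replicate 4 was low for Ddx5 (10.45 against 10.56 in the others) and high for Foxa1 (5.91 against 5.69 to 5.72) and Padi6 (4.97 against 4.59 to 4.62).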

How the results depend on the processing

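No cluster of the 10 genes passed an adjusted p of 0.05 under any of the 16 alternatives, and none reached 1.5-fold with an unadjusted p under 0.05. The adjusted p of Esr1 was lowest, 0.051, with the filter on low values, and highest, 0.33, with the replicate block. Signs turned for Padi2 cluster 17548362 with quantile normalization (0.02) and on leaving out single arrays (-0.30 to 0.35), and on leaving out single arrays for Igf1 (-0.04 to 0.09) and Padi1 cluster 17420866 (-0.45 to 0.00). The mean over both clusters of Padi2 differed by -0.23. Clusters called over all genes numbered 34, and 10 by the methods' t-test or the authors' deposited table, 54 with quantile normalization, 173 with an intensity trend, 234 over clusters with 1 symbol, 358 with the filter, 2 to 50 without single arrays, and 0 with the replicate block. By 1.5-fold with an unadjusted p under 0.05, 1022 became 386 over clusters with 1 symbol and 591 with the filter, where fewer clusters were tested. Of the estrogen-responsive genes, 3 became 6 with the trend, the filter or 1 symbol, 0 with the t-test, the authors' deposited table or the block, and 0 to 4 without single arrays. In the synthesis list and in the CEBP family, 0 became 1 with the trend, the filter, 1 symbol or quantile normalization, and the synthesis list had 0 to 1 without single arrays. Replicate numbers did not pair the samples: same-numbered arrays had correlations of their deviations between -0.03 and 0.07, and arrays of other numbers between -0.10 and 0.11. No cluster of the 10 genes was called with or without the block, which therefore says nothing of pairing. The cause of these moves was not tested, also where fewer clusters or arrays were used. Signals carry no depth, and background was not measured separately.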

Other observations

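Cluster 17420866 of Padi1 and cluster 17548362 of Padi2 had Intact replicates 1 and 3 above, and replicates 2 and 4 below, all SVX/VAS arrays. The same arrangement held for 381 clusters, 0.922% of all, a pattern looked for after these values were seen. Of the 236 among them with a symbol, 128 (54.2%) carried a symbol that also stands on another cluster, compared with 14.9% of all clusters with a symbol. The ratio of the Intact SD to the SVX/VAS SD was 19.7 for this Padi1 cluster, a ratio reached by 0.0629% of all clusters, and 4.28 for this Padi2 cluster, reached by 3.84%.

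Cluster 17420874 of Padi2, the one that stands for the gene, ran against the neutrophil marker list over the 8 arrays (Pearson's r = -0.91, exact permutation p = 8.2e-04, and Spearman's rho = -0.86, exact permutation p = 0.011). Without the 2 arrays farthest from the median of that list r was -0.87, and for deviations from the group means it was -0.78. After adjustment over the 84 pairs examined, neither passed by exact permutation (adjusted p of 0.069 and 0.18). The other Padi2 cluster, 17548362, had r = -0.48 and rho = -0.33 with the same list, and r = -0.75 for deviations from the group means. Of the 12 genes of the list, 3 lay above the median cluster. Esr1 ran against the T and NK cell list (Pearson's r = -0.72, exact permutation p = 0.0073, and Spearman's rho = -0.60, exact permutation p = 0.13). Its r was -0.35 without the 2 farthest arrays and -0.85 for deviations from the group means. Neither measure passed by exact permutation over the 84 pairs (adjusted p of 0.20 and 0.53). In that list, 1 of 8 genes lay above the median cluster.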
